A study of Homo sapiens with 3 samples.

Results

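The expression of 35 genes of glycolysis and of the cellular response to low oxygen was examined in LX-2 cells with and without FGF19. The genes were taken by symbol from a fixed list. They comprise 23 glycolysis genes, which are 17 enzymes, 3 regulators of glycolytic flux and 3 transporters, and 12 hypoxia genes, which are 4 oxygen sensors and hypoxia-inducible factors and 8 genes that these factors induce. All 35 were found among the 24254 gene symbols listed, and 32 passed a filter of at least 0.5 FPKM on average over the libraries, as did 12422 symbols in all. PDK1, EGLN3 and ANKRD37 did not pass.

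LX-2 cells are an immortalised line of human hepatic stellate cells, the fibrogenic cells of the liver, and rhFGF19 is the recombinant human form of FGF19, an endocrine fibroblast growth factor. 1 culture received vehicle and no rhFGF19, another 50 ng/mL of rhFGF19 and the other 100 ng/mL, with 1 poly(A) mRNA library sequenced from each. The time of exposure is 24 h in the series design but 72 h and 73 h in the descriptions of single samples, which also exchange the doses. The doses used here are those of the sample titles, called the lower dose (50 ng/mL) and the higher dose (100 ng/mL). No condition was replicated, so no difference below could be set against a spread between replicates and none carries a p-value. The line was grown in DMEM with serum, and no culture under low oxygen is described for these libraries.

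Levels are given in FPKM, fragments scaled to transcript length and to the mapped fragments of the library, which allows genes to be set side by side. Differences are log2 fold changes computed with 0.1 FPKM added to each value, so that those of weakly expressed genes are understated, and a gene was counted as higher or lower when it differed by more than 2-fold. FPKM is a relative measure in bulk RNA, so fewer cells that express a gene and less of its RNA per cell cannot be told apart, and a value also depends on the RNA of other genes. The sum of all FPKM values was 302243 for vehicle, 276690.2 at the lower dose and 281606 at the higher dose. Of the 11 stellate and fibroblast markers examined, 8 had at least 1 FPKM on average, led by VIM, while COL1A2 was at 0.14 FPKM or less in every library, DES at 0.08 or less, and LRAT was listed at 0 in all 3. Summed hepatocyte markers lay between 11.3 and 12.6 FPKM, mostly SERPINA1 and ALB, and summed epithelial markers between 0.89 and 1.3 FPKM. CD68, a lysosomal protein often used as a macrophage marker, lay between 39.8 and 47.5 FPKM and the monocyte marker CD14 between 2.54 and 4.28, while PTPRC, which marks all leukocytes, was not among the genes listed.

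Glycolysis splits glucose into pyruvate in the cytosol, and lactate dehydrogenase converts pyruvate to lactate so that the pathway can go on without oxygen. Hypoxia-inducible factors are transcription factors whose alpha subunits are hydroxylated by oxygen-dependent prolyl hydroxylases and then degraded. When oxygen falls the subunits persist, pair with ARNT and bind hypoxia response elements near genes for glycolytic enzymes, glucose and lactate transporters, mitophagy and growth restraint. Activated hepatic stellate cells, like other proliferating fibroblasts, are known for high glycolytic activity.

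The vehicle library stood apart from both rhFGF19 libraries in a way that touches every value below. Over all 12422 tested symbols the median difference from vehicle on the log2 scale was 0.62 at the lower dose and 0.62 at the higher dose, and 0.00 between the doses. GC-rich transcripts had the lower differences from vehicle, and over 12374 genes Spearman's rho was -0.77 at the lower dose and -0.78 at the higher dose, against 0.068 between the doses. Genes are not independent replicates, and both comparisons share the single vehicle library. With that library the only one without rhFGF19, the part of treatment and the part of library composition in this trend cannot be told apart. Counts are therefore given beside the share of all genes that passed the same limit, and the members past it also with their value after a smooth trend on GC content was removed.

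The summed FPKM of the glycolytic enzymes, led by GAPDH, TPI1 and PKM, was a smaller share of the total with rhFGF19. The 17 enzymes summed to 10852 FPKM in vehicle, 7329 at the lower dose and 7408 at the higher dose, which was 3.59%, 2.65% and 2.63% of each library's total. GAPDH alone held 1.95%, 1.43% and 1.44%. GAPDH, TPI1 and PKM were among the most abundant mRNAs of these cells, and GAPDH held rank 3 of all symbols in vehicle and rank 4 in both rhFGF19 libraries. Of the 17 enzymes, 12 lay below vehicle at both doses, though none by more than 2-fold, and 5 lay above it, of which HK2, LDHA and LDHB were more than 2-fold higher at both doses. The other 2, HK1 and PFKM, turned to below vehicle with the GC or the length trend removed. The median log2 fold change of the enzymes was -0.25 at the lower dose and -0.25 at the higher dose, against 0.62 for all genes. Most genes thus lay above vehicle, and 3 of the 17 enzymes were above the median of all genes at each dose.

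Of the 22 glycolysis genes above the filter, 4 were more than 2-fold higher at the lower dose and the same number at the higher dose, where 39.5% and 38.6% of all tested genes were. The 4 genes were HK2, LDHA, LDHB and SLC2A3 at each dose. None was more than 2-fold lower, where 1.75% of all genes were at the lower dose and 1.47% at the higher dose. The median log2 fold change of the set was -0.21 at the lower dose and -0.23 at the higher dose, and with quantile normalization these medians turned to 0.060 and 0.0031. Of the 12 enzymes below vehicle, PFKL, ALDOA, ALDOC, TPI1, GAPDH, PGK1, ENO2 and PKM stayed below it under each of the 11 alternative treatments of the data that give fold changes, whereas GPI, PFKP, PGAM1 and ENO1 changed sign under at least 1 of them. These signs are those of the mean over both doses.

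**Figure D1:**
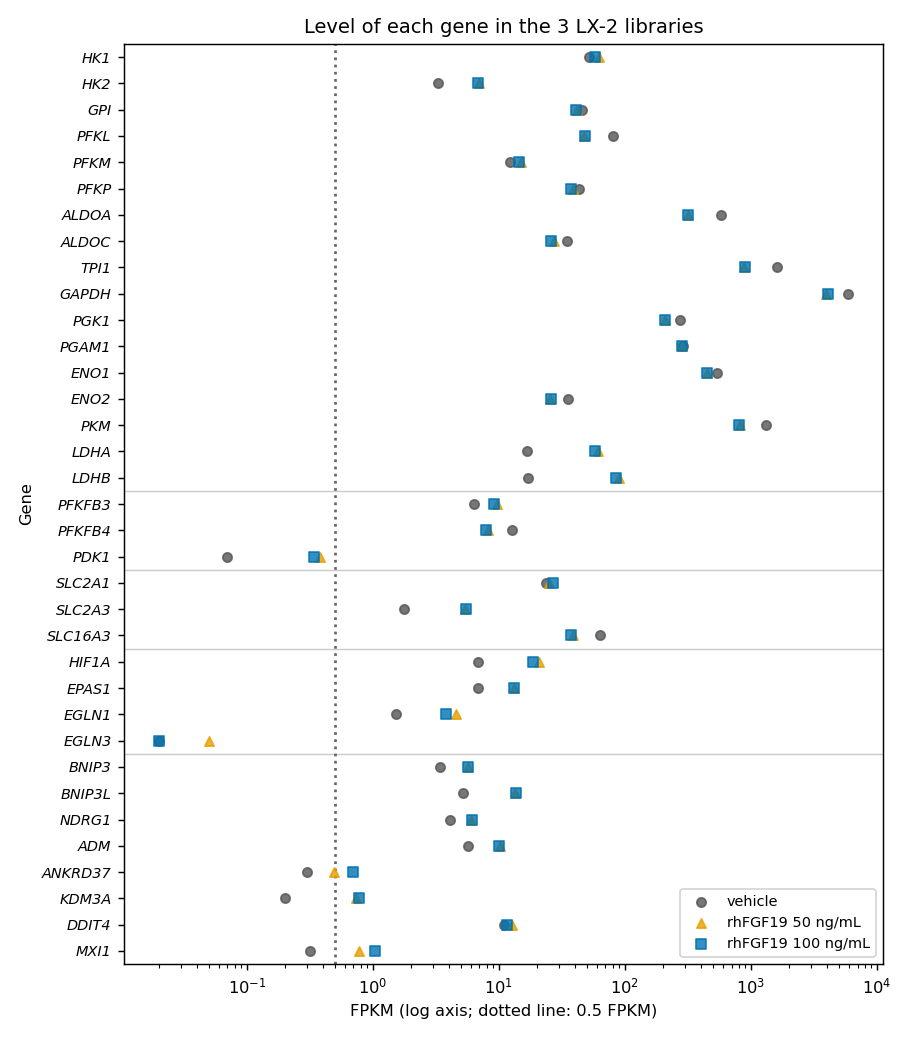
FPKM of the 35 genes in the vehicle library (circles), at the lower dose (triangles) and at the higher dose rhFGF19 (squares), 1 library each, on a log axis with grey lines between roles. The rhFGF19 libraries lay close together for most genes, GAPDH and TPI1 lay to the left of vehicle, and LDHA, LDHB and SLC2A3 lay to its right.

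Glucose uptake and its first phosphorylation were described first. SLC2A1, the widely expressed glucose transporter GLUT1, had 23.7 FPKM in vehicle, 24.9 at the lower dose and 26.7 at the higher dose, and its sign turned with the median ratio to vehicle set to 0. SLC2A3, the high-affinity transporter GLUT3, had 1.77, 5.37 and 5.49 FPKM, a log2 fold change of 1.55 at the lower dose and 1.58 at the higher dose, or 0.37 and 0.42 with the GC trend removed. The share of GLUT3 in the summed FPKM of both transporters was 6.96% in vehicle, 17.7% at the lower dose and 17.1% at the higher dose, so SLC2A1 remained the more abundant mRNA in each library. With the GC trend removed SLC2A1 was at 0.43 and 0.51, above SLC2A3, so that scale did not show the shift in share. With GC content taken from the longest transcript, the means over both doses were 0.058 for SLC2A1 and 0.46 for SLC2A3.

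HK1, the housekeeping hexokinase, had 51.9 FPKM in vehicle, 62.2 at the lower dose and 58.1 at the higher dose. HK2, the inducible hexokinase of growing and hypoxic cells, had 3.31, 6.91 and 6.87 FPKM. Its log2 fold changes of 1.04 and 1.03 were just past the 2-fold limit, and EPAS1, at 0.96 and 0.95, was the member just short of it. HK2 was at 0.42 and 0.43 with the GC trend removed. HK2 supplied 6.0% of the summed hexokinase FPKM in vehicle and 10.0% and 10.6% with rhFGF19.

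None of the enzymes of the next steps passed 2-fold. GPI, which interconverts glucose-6-phosphate and fructose-6-phosphate, had 46.0, 41.5 and 40.6 FPKM in vehicle, at the lower and at the higher dose. The phosphofructokinase subunits catalyse the committed step, and the liver-type subunit PFKL had 81.0, 47.0 and 48.0 FPKM. The platelet-type PFKP had 43.2, 38.4 and 37.2 FPKM. The muscle-type PFKM was the least abundant of the 3, at 12.3, 15.0 and 14.4 FPKM. As deposited PFKL was thus the subunit with the largest distance from vehicle, with log2 fold changes of -0.79 and -0.75, and its share of the summed subunits was 59.4% in vehicle, 46.8% at the lower dose and 48.2% at the higher dose. With the GC trend removed PFKL was at -0.32 and -0.30 and PFKM at -0.32 and -0.36, so that this ranking did not hold.

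The bifunctional PFKFB enzymes set the level of fructose-2,6-bisphosphate, the main activator of phosphofructokinase. PFKFB3, the form with the strongest kinase activity, had 6.38, 9.64 and 9.14 FPKM. PFKFB4 had 12.6, 8.16 and 7.87 FPKM. The order of the pair was therefore reversed between libraries, with PFKFB3 supplying 33.6% of their sum in vehicle, 54.2% at the lower dose and 53.7% at the higher dose, although neither gene passed 2-fold.

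From aldolase to pyruvate kinase every summed step lay below vehicle as deposited, with the PGAM1 and ENO1 steps turning under other scalings. ALDOA, the main aldolase of most tissues, had 573 FPKM in vehicle, 319 at the lower dose and 317 at the higher dose, a log2 fold change of -0.84 and -0.85. TPI1, which interconverts the triose phosphates, had 1619, 882 and 902 FPKM, and its log2 fold changes of -0.88 and -0.84 put its rhFGF19 levels at 54.5% and 55.7% of vehicle. GAPDH, which oxidises glyceraldehyde-3-phosphate and is a common reference gene, had 5907, 3959.8 and 4048 FPKM, at 67.0% and 68.5% of vehicle. PKM, the pyruvate kinase of non-liver tissues, had 1314, 817 and 798 FPKM, with log2 fold changes of -0.69 and -0.72. All 4 genes had a higher level in vehicle than in either rhFGF19 library.

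The other enzymes of the lower pathway were nearer to vehicle as deposited. PGK1, which makes the first ATP of the pathway, had 273, 207 and 209 FPKM. With the GC trend removed PGK1 was at -1.77 and -1.74, the lowest of all members. PGAM1, the phosphoglycerate mutase, had 290.5, 281 and 285 FPKM, the smallest distance from vehicle of all enzymes, and its sign turned when the libraries were rescaled to TPM. ENO1, the ubiquitous enolase, had 534, 448 and 449 FPKM. ENO2, the enolase first known from neurons, had 35.4, 25.4 and 25.8 FPKM, and ALDOC, the brain-type aldolase, had 34.6, 27.4 and 25.8 FPKM.

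Lactate dehydrogenase was the exception at the end of the pathway. LDHA, whose subunit favours the reduction of pyruvate to lactate, had 16.7 FPKM in vehicle, 61.3 at the lower dose and 57.9 at the higher dose, which was 3.66-fold and 3.46-fold higher. LDHB, whose subunit is typical of oxidative tissues, had 17.0, 90.2 and 85.1 FPKM, which was 5.27-fold and 4.97-fold higher and the largest difference of all members at both doses. With the GC trend removed, the log2 fold changes went from 1.87 and 1.79 to 0.60 and 0.54 for LDHA, under 2-fold, and from 2.40 and 2.31 to 1.05 and 0.99 for LDHB. In vehicle both subunits were about equally abundant, with LDHB at 50.5% of their sum, and with rhFGF19 LDHB held 59.5% at either dose.

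Seen as steps, the summed level of pyruvate kinase was 39.0 times that of lactate dehydrogenase in vehicle, 5.39 times at the lower dose and 5.58 times at the higher dose. With the GC trend removed the gap was smaller, with PKM at -0.62 and -0.66, LDHA at 0.60 and 0.54, and LDHB at 1.05 and 0.99. The lactate dehydrogenase step lay at 449% and 424% of vehicle, the hexokinase step at 125% and 118%, and the other 9 steps between 54.5% and 98.0%. SLC16A3, the lactate exporter MCT4, had 63.6 FPKM in vehicle, 38.9 at the lower dose and 37.6 at the higher dose, with log2 fold changes of -0.71 and -0.76. Its relative SLC16A1, the lactate transporter MCT1, had 1.98, 6.75 and 6.98 FPKM, so that the ratio of SLC16A3 to SLC16A1 was 32.1 in vehicle and 5.77 and 5.38 with rhFGF19. With the GC trend removed SLC16A1 was at 0.39 and 0.46, under 2-fold, and SLC16A3 at -0.16 and -0.22. PDK1, a kinase that blocks the entry of pyruvate into mitochondria, was listed at 0.07, 0.38 and 0.34 FPKM and did not pass the filter.

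The promoters of the enzymes with the largest differences in each direction are shown because hypoxia-inducible factors act on glycolytic genes through short elements near the gene start. The windows are RefSeq sequences on GRCh38.p14, read 5′ to 3′ on the strand of the gene, from 250 bases before to 50 bases after its annotated start. Capitals mark each match, on either strand, to ACGTG or GCGTG, the cores of the hypoxia response element. They lie at chr12:21657793-21658092 (minus strand) for LDHB, chr11:18394313-18394612 (plus) for LDHA, chr12:6867281-6867580 (plus) for TPI1 and chr16:30064029-30064328 (plus) for ALDOA.
LDHB: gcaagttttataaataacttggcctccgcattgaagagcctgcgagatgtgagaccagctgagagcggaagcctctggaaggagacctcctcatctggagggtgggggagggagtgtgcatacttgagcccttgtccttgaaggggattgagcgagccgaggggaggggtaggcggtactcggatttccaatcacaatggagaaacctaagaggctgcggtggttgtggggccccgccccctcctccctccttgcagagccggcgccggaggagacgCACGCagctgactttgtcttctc
LDHA: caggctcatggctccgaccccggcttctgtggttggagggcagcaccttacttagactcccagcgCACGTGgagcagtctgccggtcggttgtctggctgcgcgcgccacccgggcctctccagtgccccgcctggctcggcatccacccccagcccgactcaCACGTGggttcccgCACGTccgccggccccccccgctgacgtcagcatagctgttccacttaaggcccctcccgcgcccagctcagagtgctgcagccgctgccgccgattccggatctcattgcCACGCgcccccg
TPI1: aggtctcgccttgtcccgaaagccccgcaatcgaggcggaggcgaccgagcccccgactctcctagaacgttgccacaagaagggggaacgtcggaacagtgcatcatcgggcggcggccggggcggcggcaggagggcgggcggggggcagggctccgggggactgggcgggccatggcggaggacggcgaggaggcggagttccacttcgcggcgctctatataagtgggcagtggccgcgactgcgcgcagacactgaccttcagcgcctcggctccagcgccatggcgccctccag
ALDOA: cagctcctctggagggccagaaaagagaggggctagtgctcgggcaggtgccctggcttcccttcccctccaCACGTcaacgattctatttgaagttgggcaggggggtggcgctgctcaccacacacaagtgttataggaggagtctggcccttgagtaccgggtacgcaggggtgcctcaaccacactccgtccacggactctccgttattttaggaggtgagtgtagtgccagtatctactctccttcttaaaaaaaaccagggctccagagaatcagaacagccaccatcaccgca

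The LDHA window held 5 matches to ACGTG, where a palindromic CACGTG counts on each strand, and 1 to GCGTG. The LDHB window held none to ACGTG and 1 to GCGTG. The ALDOA window held 1 to ACGTG, and the TPI1 window held neither. The windows thus differed within each pair. Windows were found for 32 of the 35 genes, all but SLC2A3, BNIP3L and NDRG1, and 1 window was kept for each gene. The windows they are set against were not reduced to 1 for each gene. ACGTG was present in 37.5% of the 32 and in 21.4% of 35116 promoter windows of the same length, and GCGTG in 53.1% and 36.5%. The median GC content of the windows was 69.7% for the members and 58.7% for all, and both cores hold a CG pair. These matches are letters in a window and say nothing of binding in these cells.

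**Figure D2:**
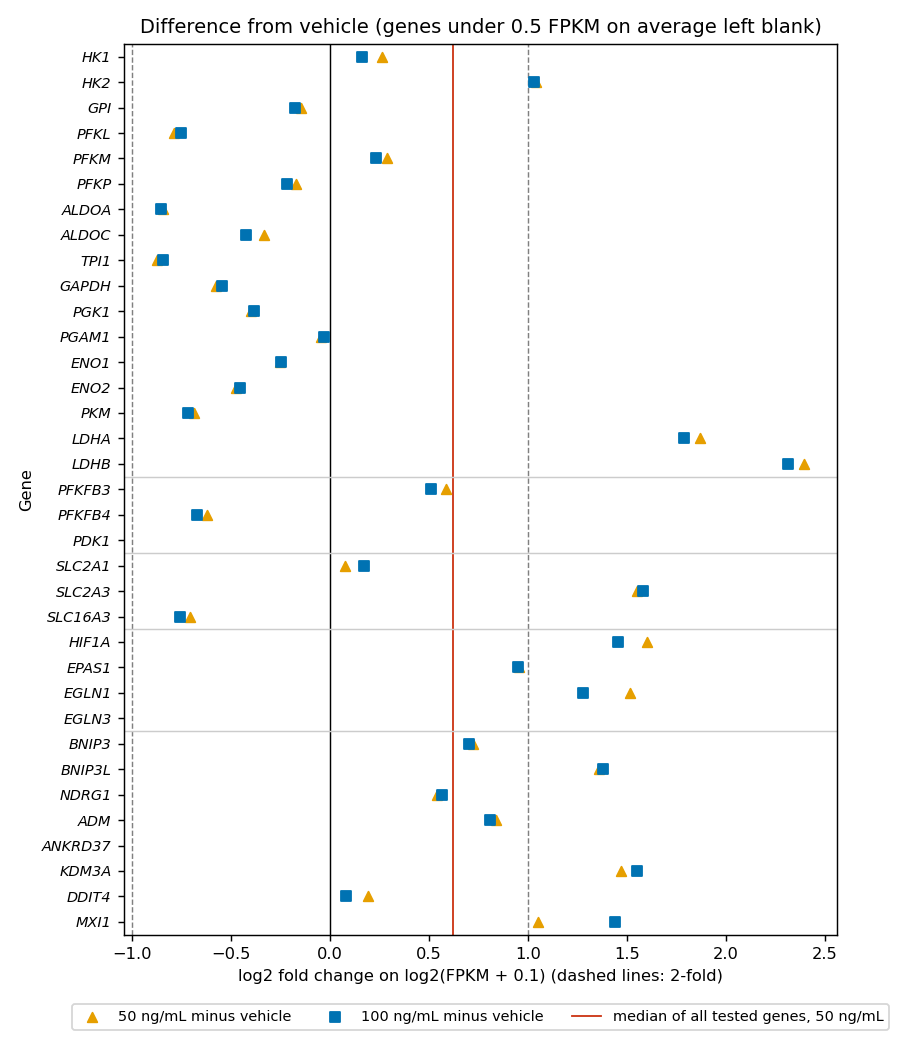
log2 fold change of each member that passed the filter, at the lower dose (triangles) and the higher dose (squares) minus vehicle, with dashed lines at 2-fold and a red line at the median of all tested genes at the lower dose, 0.62. LDHB, LDHA, SLC2A3, HIF1A and KDM3A lay furthest to the right, while 14 glycolysis genes lay below 0, of which GPI, PFKP, PGAM1 and ENO1 turned under other scalings.

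The hypoxia genes lay above vehicle, as did most genes. All 10 that passed the filter were above it at both doses. Their median log2 fold change was 1.003 at the lower dose and 1.11 at the higher dose, against 0.62 for all genes. Of the 10, 8 were above the median of all genes at each dose. At each dose 5 of the 10 were more than 2-fold higher, where 39.5% and 38.6% of all genes were, so the count was near the share over all genes. These were HIF1A, EGLN1, BNIP3L, KDM3A and MXI1. None was more than 2-fold lower. Signs under the alternatives were judged on the mean over both doses. By that measure HIF1A, EPAS1, EGLN1, ADM and KDM3A stayed above vehicle under each alternative that gave them a value. BNIP3, BNIP3L, NDRG1, DDIT4 and MXI1 turned under at least 1. At the higher dose alone, HIF1A was at -0.035 and EGLN1 at -0.020 with the GC trend removed. BNIP3 turned to -0.083 with the length trend removed and NDRG1 to -0.061 with quantile normalization, as means over both doses.

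The factors and their sensors came first. HIF1A, the alpha subunit of the main hypoxia-inducible factor, had 6.79 FPKM in vehicle, 20.8 at the lower dose and 18.8 at the higher dose, a log2 fold change of 1.60 and 1.45. EPAS1, the related subunit HIF-2 alpha, had 6.77, 13.2 and 13.2 FPKM. In vehicle both subunits were equally abundant, with HIF1A at 50.1% of their sum, and with rhFGF19 HIF1A held 61.1% and 58.7%. This shift in share did not hold on every scale. Means over both doses were 1.22 for HIF1A and 0.59 for EPAS1 with quantile normalization, and 0.65 and 0.47 with the length trend removed. With the GC trend removed HIF1A was at 0.10 and -0.035 and EPAS1 at 1.14 and 1.12, the other way round. With GC content of the longest transcript the means were 0.043 and 0.63, also the other way round. Since the abundance of both proteins is set mainly by their degradation, their mRNA levels do not give the activity of either factor.

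EGLN1, the main prolyl hydroxylase that marks these subunits for degradation (PHD2), had 1.52, 4.54 and 3.83 FPKM, a log2 fold change of 1.52 and 1.28. EGLN3, the hydroxylase most strongly induced by hypoxia in many cells (PHD3), was listed at 0.02, 0.05 and 0.02 FPKM and was at or near 0 in every library. EGLN1 therefore made up at least 98.7% of their sum in each library.

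Among the genes that hypoxia-inducible factors induce, those at moderate levels differed little between the rhFGF19 libraries. BNIP3L, a mitophagy receptor of the outer mitochondrial membrane, had 5.18 FPKM in vehicle, 13.4 at the lower dose and 13.6 at the higher dose, with log2 fold changes of 1.36 and 1.38. Its relative BNIP3 had 3.43, 5.72 and 5.64 FPKM and stayed under 2-fold. ADM, which encodes the vasodilator peptide adrenomedullin, had 5.64, 10.2 and 9.94 FPKM, with log2 fold changes of 0.84 and 0.81.

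NDRG1, a stress-induced regulator of growth and differentiation, had 4.11, 6.03 and 6.14 FPKM. DDIT4, the inhibitor of mTORC1 signaling also called REDD1, had 11.0, 12.6 and 11.7 FPKM, the smallest difference of the hypoxia genes, and its sign turned when the median ratio to vehicle was set to 0. The lowest genes that passed depended most on the pseudocount. KDM3A, a histone H3 lysine demethylase, had 0.20, 0.73 and 0.78 FPKM, and MXI1, a repressor that opposes MYC, had 0.32, 0.77 and 1.04 FPKM. Their log2 fold changes were 1.47 and 1.55 for KDM3A and 1.05 and 1.44 for MXI1, and with a pseudocount of 1 the means over both doses were 0.55 and 0.53. ANKRD37 was listed at 0.30, 0.49 and 0.70 FPKM and missed the filter narrowly.

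The rhFGF19 libraries lay close together over all genes, with a median log2 difference of 0.00 and an SD of 0.32, and for the members alike. Between the doses, 0 of the 32 members differed by more than 2-fold in either direction, where 0.845% of all genes were higher and 0.797% lower. That count was near the share over all genes. The largest differences were those of MXI1, at 0.39 on the log2 scale, and EGLN1, at -0.24, and none of the 22 glycolysis genes differed by more than 0.098. The median log2 difference was -0.019 for the glycolysis genes and -0.012 for the hypoxia genes.

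The members followed the same trend on GC content as all genes. The glycolysis genes that passed the filter had a median transcript GC content of 56.0% and the hypoxia genes 49.2%, against 51.2% for all tested genes. Across the 32 members the Spearman correlation of GC content with the difference from vehicle was -0.64 at the lower dose and -0.65 at the higher dose, given as a description of these libraries. HIF1A (38.5% GC), BNIP3L (41.4%) and KDM3A (42.5%) were GC-poor and higher with rhFGF19, and SLC16A3 (66.5%) and PFKL (63.5%) were GC-rich and below vehicle.

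Members were then set against the 10th to 90th percentile of genes within the same 2 percentage points of GC content. By its definition that range holds most genes of each bin, with about 10% of them below it and about 10% above it. At the lower dose, 23 of the 32 members lay within it, 6 above and 3 below. LDHB (43.7% GC) had a log2 fold change of 2.40 where the range was 0.70 to 1.80, and LDHA (44.9%) had 1.87 where it was 0.49 to 1.74. PGK1 had nearly the GC content of LDHB, 43.1%, but a log2 fold change of -0.40, far below the same range of 0.70 to 1.80. EPAS1, ADM, PFKFB3 and DDIT4 lay above the range of their GC content, and TPI1 and ALDOA lay below it. At the higher dose 23 members lay within, 5 above and 4 below, with DDIT4 within the range and PKM below it.

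With the GC trend removed, the hypoxia genes moved toward 0 and the glycolysis genes stayed slightly below it. The median of the glycolysis genes was -0.31 at the lower dose and -0.29 at the higher dose, and that of the hypoxia genes 0.17 and 0.27. At the lower dose LDHB, EPAS1 and ADM were then more than 2-fold higher and PGK1 more than 2-fold lower, where 3.74% of all genes were higher and 5.03% lower. At the higher dose EPAS1 was higher and PGK1 lower, where 3.31% and 4.49% of all genes were. EPAS1 and ADM, under 2-fold as deposited, had values of 1.14 and 1.04 at the lower dose. At that dose HIF1A went from 1.60 to 0.10, KDM3A from 1.47 to 0.066, EGLN1 from 1.52 to 0.20, MXI1 from 1.05 to -0.043 and BNIP3L from 1.36 to -0.083. At the higher dose HIF1A went from 1.45 to -0.035, KDM3A from 1.55 to 0.17, EGLN1 from 1.28 to -0.020, MXI1 from 1.44 to 0.37 and BNIP3L from 1.38 to -0.043. The signs of HIF1A, EGLN1 and MXI1 thus differed between doses. The result for EPAS1 rested on how GC content was taken: with that of its longest transcript, its mean over both doses was 0.63 in place of 1.13.

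Other genes of these pathways were counted from lists that the members were not part of. Of 40 further genes of glycolysis and pyruvate metabolism, 21 passed the filter, and 11 of them were more than 2-fold higher at each dose and none lower, beside 39.5% and 38.6% of all genes higher. With the GC trend removed 0 of the 21 were higher and 1 was lower at each dose. The highest were DLD, a subunit shared by mitochondrial dehydrogenase complexes, from 1.47 FPKM in vehicle to 6.0 and 5.99, SLC16A1, and PGM2, a phosphopentomutase, from 4.09 to 12.7 and 12.9. The lowest were BSG, the chaperone of the lactate transporters, at 303, 185 and 191 FPKM, and SLC2A6, at 30.5, 20.1 and 19.4. Of 15 genes of the pentose phosphate pathway and gluconeogenesis, 10 passed, and 1 of them, RPE, was more than 2-fold higher at each dose and none with the GC trend removed. The median of these 10 was -0.48 at the lower dose and -0.51 at the higher dose.

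Of 14 further components of the hypoxia-inducible factor pathway, 13 passed and 5 were more than 2-fold higher at each dose, near the 39.5% and 38.6% over all genes. After removal of the GC trend 0 were higher and 2 lower. As deposited the highest were CITED2, which competes with HIF-1 alpha for its coactivators, at 9.14, 23.7 and 23.7 FPKM, CUL2, a scaffold of the VHL ubiquitin ligase, at 0.97, 2.59 and 2.61, and ARNT, the partner of the alpha subunits, at 0.81, 2.31 and 2.07. With the GC trend removed their log2 fold changes were 0.52 and 0.54 for CITED2, -0.16 and -0.14 for CUL2, and 0.30 and 0.17 for ARNT. ELOB, another part of that ligase, lay at 203, 101 and 112 FPKM, and EGLN2, the third prolyl hydroxylase, at 26.5, 16.6 and 16.3. Of 34 further targets of the factors, 27 passed, and 15 were more than 2-fold higher at the lower dose and 16 at the higher dose, with none lower, again beside 39.5% and 38.6% of all genes. With the GC trend removed 2 were higher at each dose, and 0 and 1 lower. The highest were TFRC, INSIG2 and RIOK3, all with a GC content of at most 42.0%, and the lowest ANGPTL4 and MIF, both of at least 64.1%.

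Several members have processed pseudogenes or overlapping genes whose reads could be shared, and how the counting treated such reads is not given in the sources used here. GAPDH had 14 listed pseudogenes that summed to 30.9 FPKM in vehicle, and TPI1P1 was listed at 113 FPKM in vehicle, 58.0 at the lower dose and 56.8 at the higher dose, near the ratio of TPI1 itself. The LDHA pseudogenes summed to 1.45 FPKM or less. PGK1 overlaps ATP7A on its strand, which had 0.56 FPKM or less in every library.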

How the data were processed

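Poly(A) mRNA of 3 LX-2 cultures was sequenced as paired ends on an Illumina HiSeq instrument, 1 library for each condition. Alignment by the authors used HISAT2, and the deposited values are FPKM to 2 decimals for 26108 genes. The submitters' processing notes also name StringTie 1.3.0, HISAT2 2.0, Bowtie 0.12.2 and the builds hg19 and mm8, without roles. Of the 25531 identifiers found in GENCODE release 29, 99.8% had coordinates overlapping those of GRCh38. The deposited FPKM values keep no fragment counts, and estimates to 2 decimals did not allow them to be recovered, so depth is unknown and no interval is given.

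Rows sharing a symbol were summed. Differences between single libraries were taken on log2(FPKM + 0.1) for symbols averaging at least 0.5 FPKM, and more than 2-fold was counted as changed, the size limit of the study's methods. No test was run. Transcript GC content and length were medians over the listed transcripts, found for 99.6% of tested symbols, and trends were removed by loess with a span of 0.3. The members and lists were chosen with earlier results of these data known. All 35 members are named; of each further list, at most the 3 highest and the 2 lowest by the smaller of both fold changes. A move between settings was judged against 0.32, the SD of the log2 difference between the rhFGF19 libraries over all genes, divided by the square root of the number of genes for a median. In all, 11 other settings were tried, and 1 more was chosen after seeing the data. Python 3.11.15, NumPy 2.4.6, pandas 2.3.3, SciPy 1.17.1, statsmodels 0.14.6 and Matplotlib 3.10.9 were used.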

Additional observations from a re-analysis of the deposited data

How the results depend on the processing

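With 1 library per condition, every value rests on single libraries and no replicate could be left out. No paired analysis was possible because no condition was replicated. Removal of the length trend moved all 32 members by more than the spread between doses, removal of the GC trend moved 17 and turned 1 more, and quantile normalization 14. The cause was not tested. Medians are given at 50 and then 100 ng/mL. With the median ratio to vehicle set to 0 they were -0.44 and -0.46 for the glycolysis genes and 0.77 and 0.89 for the hypoxia genes. With TPM they were -0.084 and -0.13, and 1.20 and 1.24. With quantile normalization the glycolysis medians turned to 0.060 and 0.0031, the hypoxia medians were 0.48 and 0.51, and 2 glycolysis genes and 1 hypoxia gene were more than 2-fold higher at each dose, beside 9.19% and 8.42% of all genes. With the length trend removed they were -0.66 and -0.72, and 0.45 and 0.36, with 1 and 2 hypoxia genes higher, beside 14.0% and 13.5% of all genes. With the GC trend removed they were -0.31 and -0.29, and 0.17 and 0.27, with 1 and 0 glycolysis and 2 and 1 hypoxia genes higher, beside 3.74% and 3.31%. With GC content of the longest transcript, an alternative chosen after seeing the data, they were -0.28 and -0.31, and 0.19 and 0.21, with 1 gene of each set higher at each dose, beside 3.27% and 2.89%. The hypoxia medians were 0.68 and 0.67 with a pseudocount of 1, with 3 and 2 genes higher beside 17.6% and 16.7% of all, 0.90 and 0.98 without a filter, and 0.90 and 0.88 with at least 1 FPKM, with 3 and 3 higher beside 37.8% and 37.0%. At a 1.5-fold limit 8 of 10 hypoxia genes were higher at each dose, beside 51.0% and 50.8% of all genes. Of single genes past 2-fold, BNIP3L turned to -0.063 with the GC trend removed and to -0.078 with that of the longest transcript, where MXI1 turned to -0.019. Centring by trend removal and quantile normalization sets values relative to other genes by construction.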

Other observations

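GAPDH, at 5907 FPKM in vehicle and 3959.8 and 4048 with rhFGF19, was also the internal control of the quantitative PCR described in the study's methods. Expressed relative to GAPDH within each library, the median log2 fold change over the other 12421 genes was 1.20 with the lower dose and 1.16 with the higher. On that scale 9 of the 10 hypoxia genes and 5 of the 21 other glycolysis genes were more than 2-fold higher at each dose, where 55% and 54.1% of all genes were. The scale shifts every gene by the same amount, as GAPDH itself was at -0.58 and -0.55. Without it 5 of the 10 hypoxia genes were more than 2-fold higher at each dose, beside 39.5% and 38.6% of all genes. With the GC trend removed 2 and 1 of the 10 were, beside 3.74% and 3.31%.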
